A study of Saccharomyces cerevisiae with 18 samples.

Results

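The comparison described here is that of 3 min with 0 min after glucose-depleted wild-type cells of Saccharomyces cerevisiae, budding yeast, entered fresh synthetic complete medium with 2% glucose. Its members are 4 arrays, chosen by their labelled time from the 18 arrays of a time-course of 9 times up to 300 min, with 1 array of culture a and 1 of culture b at each time. On each array the RNA of a culture was hybridised together with the same wild-type reference RNA, called the pool below, and 5270 named genes were tested. The cells at 3 min had spent that time in the new medium, and the cells at 0 min were taken just after entering it. Glucose and the other nutrients of the medium arrived together, so their parts cannot be told apart. All values of single arrays below are log2 ratios of the sample to the pool, given for culture a and then culture b.

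Both groups carry the strain label BY4742 and the genotype label wt-matA, and the pool carries the same strain label. The genes that mark cell type go against part of these labels, since BY4742 is known as an alpha strain that lacks LYS2. The mean log2 ratio of 4 genes expressed in alpha cells was -4.99 and -4.38 at 3 min, against -4.64 and -4.04 at 0 min. The 6 genes expressed in a cells averaged 3.30 and 3.69 at 3 min, against 2.32 and 2.45 at 0 min, and LYS2 had 3.12 and 3.48 at 3 min, against 3.30 and 3.30 at 0 min. The samples were therefore far below the pool in alpha-cell transcripts and far above it in a-cell transcripts and LYS2 on all 4 arrays.

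These values hold for culture a at 0 min only with the sign of its array turned. Both 0 min samples are labelled with Cy5, whereas the culture a sample carries Cy3 at all later times. As labelled, culture a's 0 min array correlated at r = -0.912 (rho = -0.926) with that of culture b over all genes, and its alpha-cell genes averaged 4.64 above the pool. Its log2 ratios were therefore multiplied by -1. No source used here states this change, the direction of that array is not settled by the labels, and the study's own table keeps the labelled direction, which is opposite to the one used here. With the array turned, culture a always carries Cy3 and culture b Cy5, so culture and dye cannot be told apart. The change in culture b alone, 3 min minus 0 min, does not use the turned array, and counts without that array stand beside those with it.

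Yeast that has run out of glucose lives on ethanol and on stored carbohydrate and lipid, respires, and keeps a broad stress programme switched on. Returning glucose is known to raise cyclic AMP and so to activate protein kinase A, which holds back the stress activators Msn2 and Msn4 and favours ribosome production. Glucose also turns off the Snf1 kinase, which respiratory and gluconeogenic genes need, and frees the hexose transporter genes from the repressor Rgt1. An array measures the amount of a transcript, so a level at 3 min holds both what was made and what was degraded since the transfer.

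Within 3 min, 641 genes were higher and 703 lower than at 0 min, 12.2% and 13.3% of the genes tested. A call required a Benjamini-Hochberg adjusted p below 0.01 in limma and a fold change above 1.7, thresholds that the study also used. All 1344 called genes changed in the same direction in both cultures. For none of them did an array of 3 min overlap an array of 0 min. The thresholds were applied to these same arrays and largely select for both, so neither is separate evidence of agreement. The shares over all genes are not given here. At least a 4-fold change was called for 40 genes higher and 52 genes lower. The 2 cultures gave like changes across genes (r = 0.874, rho = 0.91), and the mean absolute difference between cultures was 0.172 at 3 min and 0.301 at 0 min on the log2 scale. Culture a's 0 min array was turned partly for its correlation with culture b. The likeness of the changes and the difference at 0 min are therefore not independent of that choice.

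**Figure D1:**
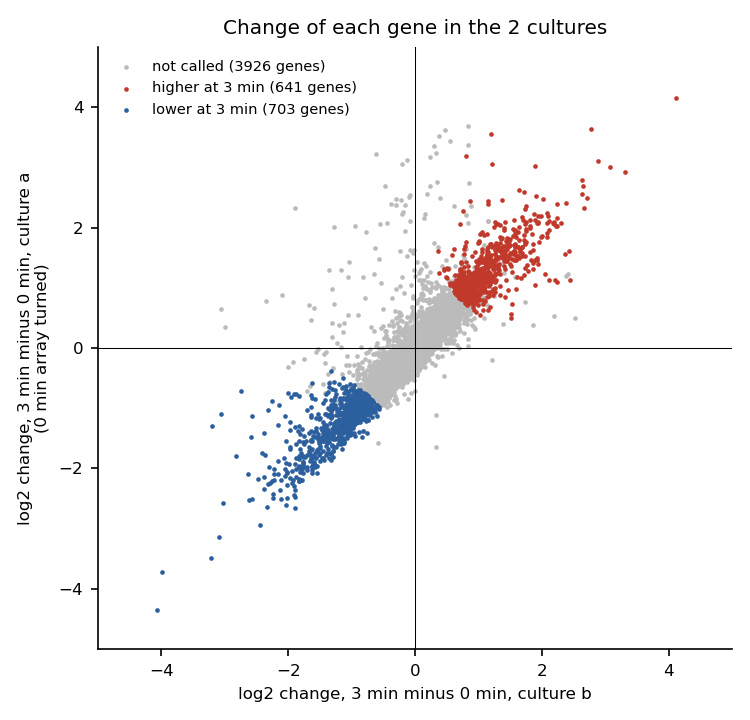
Change of each of the 5270 named genes in culture b (x axis) and culture a (y axis), as the log2 ratio at 3 min minus that at 0 min, after turning culture a's 0 min array. The 641 genes called higher lie to the upper right and the 703 called lower to the lower left, with 3926 uncalled genes in grey.

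The counts depend on culture a's 0 min array and on how the arrays are centred. Without that array, 498 genes were higher and 743 lower (9.45% and 14.1%), of which 481 and 639 were also called with it. With the array as labelled, its values cancelled those of culture b, and 104 genes were higher and 129 lower (1.97% and 2.45%). Of the 1344 called genes, 585 have the other sign of change in that direction, 104 of them among the genes named below. The deposited ratios are centred on each array, so each change is relative to the middle of all genes, whose median change was -0.01. Placing the arrays instead on 6 external control probes moved that median to 0.46, with 1611 genes higher and 293 lower (30.6% and 5.56%). A change in the RNA held by each cell and a change in the share of a transcript cannot be told apart in the centred ratios. All 641 genes called higher stayed higher under this shift, and 293 of the 703 called lower stayed lower.

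Gene lists are described by how many of their measured members were called in each direction, beside the shares of all genes above. The genes and lists were chosen with earlier results of these data known, so a count describes its list and supports nothing beyond it. Of 272 genes named, 85 lay outside the rule for naming genes and were chosen after their values were seen. In the same way 15 lists were made after the values were seen. They cover oxidant and electrophile defence, drug efflux, nuclear pores and karyopherins, cytosolic tRNA synthetases, translation factors, and cytosolic and mitochondrial ribosomal proteins. The others cover pheromone response, ubiquinone, maltose and sucrose, biotin, polyamine, sphingolipid, pentose phosphate and aryl-alcohol dehydrogenase genes. Genes with nearly identical copies (ribosomal proteins, hexose transporters, maltose genes, some reductases) can share signal on a probe, and how much was not tested. Of the named genes 19 had a spot above 32768 scanner units, the saturation limit used, in the sample or the pool on at least 1 of the 4 arrays, and their folds are less certain. They are ADH6, AHP1, TRX2, URA7, EFB1, RPS3, RPL26B, UTH1, HTA2, HTB1, YRO2, HXT6, ICL1, CIT2, HSP26, SPI1, CDC19, PDC5 and PDC1.

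**Figure D2:**
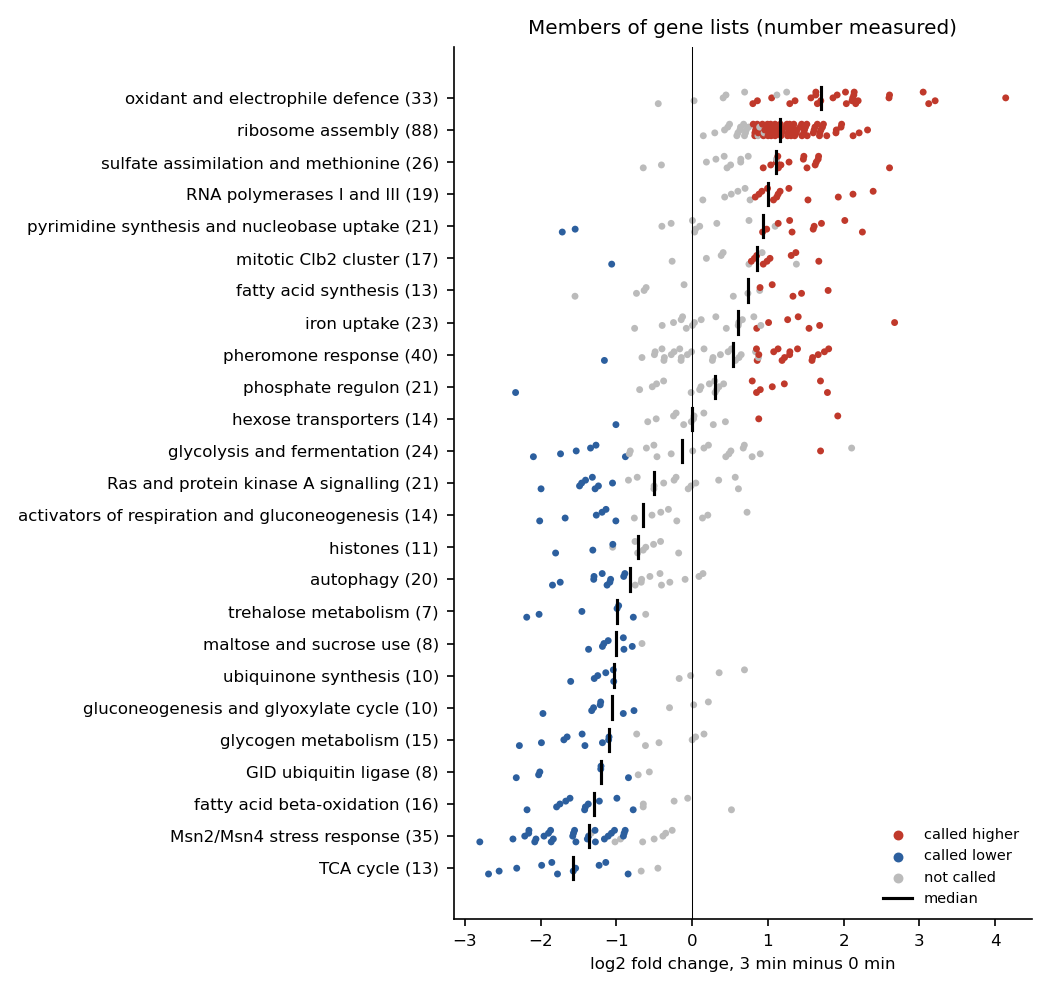
Log2 fold change (3 min minus 0 min, x axis) of every measured member of 25 gene lists, ordered by median, with the number measured in brackets. Points are genes, coloured by call, and the black bar is the list's median, which was 1.7 for oxidant and electrophile defence at the top and -1.57 for the TCA cycle at the bottom.

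The 4 largest rises were in GPX2, ADH6, OYE3 and HBN1, which belong to a list of 33 measured genes that act on oxidants and reactive aldehydes. The 20 largest also held genes of ribosome production and translation, among them URB1, RPS3, RPA135, RPL26B and EFB1, described further on. The list was assembled after its values were seen, so its count of 26 that rose and none that fell, beside 12.2% higher among all genes, and its median log2 change of 1.7 reflect that choice. GPX2, which encodes a peroxidase that reduces lipid hydroperoxides, had log2 ratios of 1.08 and 0.92 at 3 min, against -3.08 and -3.20 at 0 min. It lay far below the pool at 0 min and above it at 3 min in both cultures. This was a 17.6-fold rise (log2 4.14, SE 0.18, limma adjusted p = 9.14e-09). OYE3, an NADPH oxidoreductase of the old yellow enzyme family, had 4.56 and 4.70 at 3 min, against 1.63 and 1.38 at 0 min, an 8.70-fold rise. OYE3 was thus above the pool at both times and far above it at 3 min. Its relative OYE2 had 1.12 and 1.87 at 3 min, against -0.28 and 0.55 at 0 min, a 2.56-fold rise that was not called without culture a's 0 min array (log2 0.94).

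Further rises in this group were in enzymes that reduce aldehydes and quinones with NADPH. ADH6, an alcohol dehydrogenase for bulky and aromatic aldehydes, had 2.96 and 2.76 at 3 min, against -0.68 and -0.01 at 0 min, and rose 9.23-fold (limma adjusted p = 5.07e-08). Its relative ADH7 had 2.06 and 2.15 at 3 min, against -0.50 and -0.49 at 0 min, and rose 6.05-fold. GRE2, a methylglyoxal reductase, rose 4.57-fold, and ARI1, an aldehyde reductase, rose 2.44-fold. HBN1 and FRM2, related proteins that resemble bacterial nitroreductases, rose 8.28-fold and 4.34-fold. HBN1 had 2.63 and 2.79 at 3 min, against -0.39 and -0.30 at 0 min, so the groups lay far apart and the cultures close together. YLR460C rose 4.47-fold and YLR108C 4.39-fold.

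Glutathione and thioredoxin genes rose with them. GSH1, the first enzyme of glutathione synthesis, had 1.92 and 2.04 at 3 min, against 0.52 and 0.18 at 0 min (3.10-fold, limma adjusted p = 1.93e-05), whereas GSH2, the second enzyme, changed by 0.45 and was not called. GTT2, a glutathione transferase, rose 3.10-fold, ECM4, another, rose 2.07-fold, and OPT1, which carries glutathione and peptides into the cell, rose 4.32-fold. SRX1, the sulfiredoxin that repairs overoxidised peroxiredoxins, had 2.96 and 2.52 at 3 min, against 0.98 and 1.11 at 0 min, a 3.24-fold rise. AHP1, a peroxiredoxin, rose 4.07-fold, CCS1, the copper chaperone of superoxide dismutase, 3.77-fold, YHB1, a nitric oxide oxidoreductase, 3.63-fold, and TRR1, thioredoxin reductase, 1.82-fold. TRX2, thioredoxin, had 0.37 and 1.81 at 3 min, against -0.02 and -0.04 at 0 min, and the spread between cultures at 3 min was larger than the change of 1.12 (limma adjusted p = 0.103). AHP1 (log2 1.7) and TRR1 (0.67) were not called without culture b's 3 min array.

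A list of 25 oxidative stress genes, which shares GPX2, OYE2, OYE3, GSH1, AHP1 and TRR1 with the one above, had 7 rises (4 without culture b's 3 min array) and 1 fall, SOD2 (3 falls without culture b's 0 min or 3 min array). Of the genes that follow, CTT1 and GPX1 are in neither list. CTT1, the cytosolic catalase, had 0.31 and 0.37 at 3 min, against 1.28 and 1.45 at 0 min, and fell 2.03-fold. SOD2, the mitochondrial superoxide dismutase, fell 1.95-fold, and GPX1, a glutathione peroxidase related to GPX2, fell 2.23-fold. YAP1, which encodes the main activator of oxidant defence genes, changed by -0.28 and was not called, and SKN7, its partner, changed by 0.51 and was not called. Of the 33 defence genes, 14 were also called higher in the labelled direction, among them OYE3, ADH6, ADH7, HBN1, FRM2, GRE2, SRX1, CCS1, GTT2 and GSH1, and 24 were called higher without culture a's 0 min array. GPX2 was not called in the labelled direction (log2 1.06, limma adjusted p = 0.598).

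**Figure D3:**
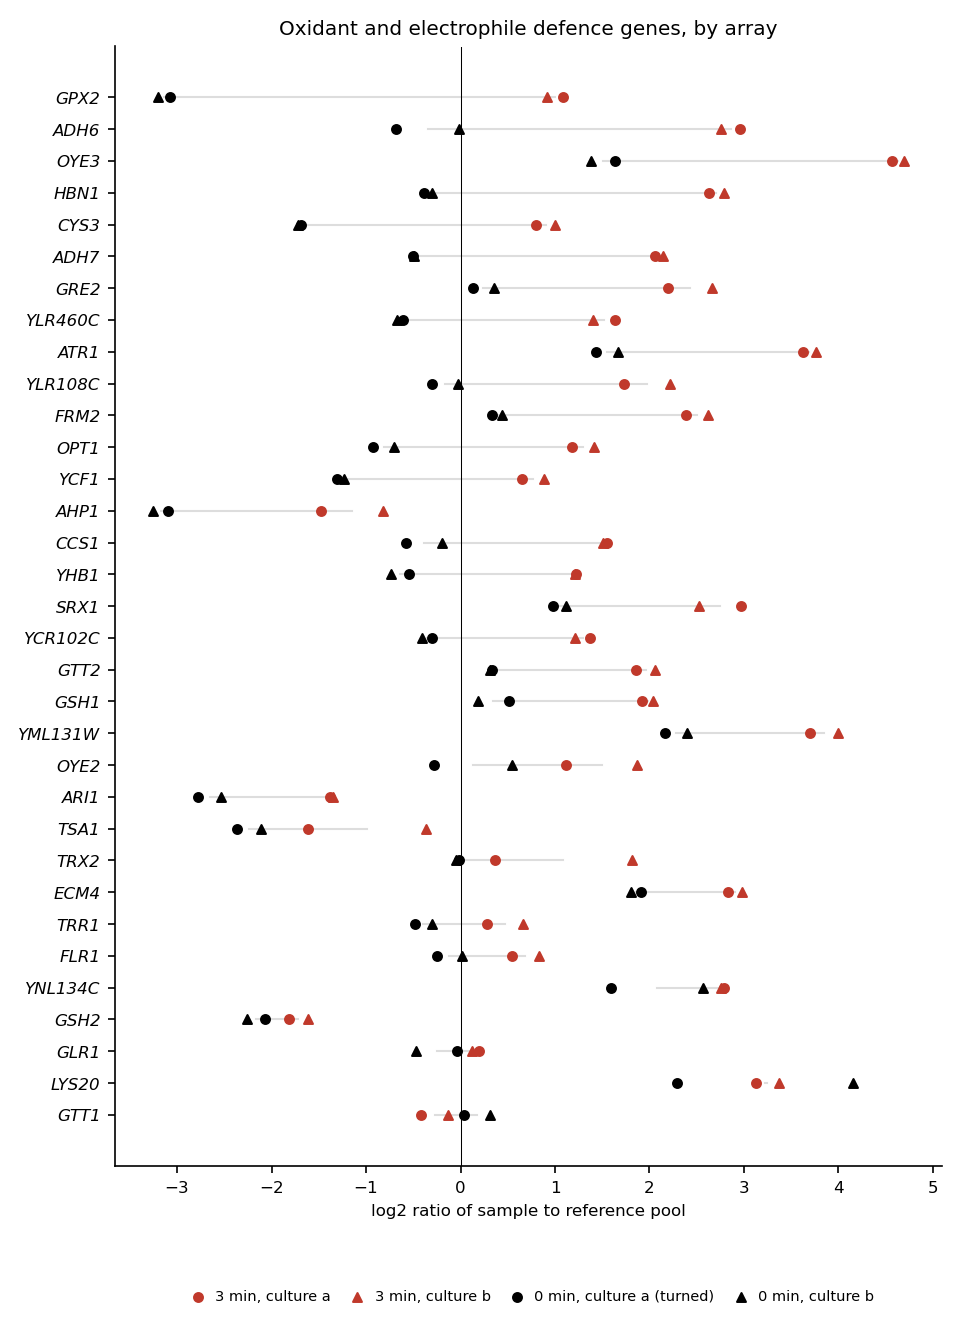
Log2 ratio to the reference pool (x axis) of the 33 oxidant and electrophile defence genes on each array, ordered by change. Red marks are 3 min and black marks 0 min, circles are culture a and triangles culture b, and the grey line joins the means. GPX2 at the top lay at 1.08 and 0.92 at 3 min, against -3.08 and -3.20 at 0 min.

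Among 25 drug efflux genes, a list made after the values were seen, 5 rose, 4 fell (2 without culture b's 0 min array) and 16 were not called, shares near those of all genes. PDR5, the main multidrug exporter, had -0.48 and -0.49 at 3 min, against -3.28 and -3.12 at 0 min, and rose 6.57-fold (limma adjusted p = 3.49e-09). SNQ2, a related exporter, rose 4.21-fold, ATR1, an exporter of aminotriazole and borate, 4.40-fold, and YCF1, which moves glutathione conjugates into the vacuole, 4.10-fold. TPO1 and TPO3, exporters of polyamines, fell 2.61-fold and 3.30-fold, and AUS1, a sterol importer, fell 2.95-fold. The median was -0.23, or 0.24 under the external control shift. PDR1, an activator of the exporter genes, rose 1.77-fold, a call lost without culture a's 0 min array (log2 0.64), and PDR3, its relative, changed by 0.52 and was not called. TPO3 was not called without culture b's 0 min array (-0.73) or without a 3 min array.

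Sulfur assimilation rose as a pathway. Of 26 genes for sulfate uptake, reduction and methionine synthesis, 15 rose and none fell, with a median of 1.11, and the counts were equal without culture a's 0 min array. CYS3, which makes cysteine from cystathionine, had 0.80 and 1.0 at 3 min, against -1.69 and -1.72 at 0 min, and rose 6.08-fold (limma adjusted p = 2.39e-08). SUL1, a sulfate permease, had 2.02 and 2.76 at 3 min, against 0.93 and 0.52 at 0 min, and rose 3.18-fold. Both 3 min values of SUL1 lay above both 0 min values. MET3 and MET14, which activate sulfate, rose 2.78-fold and 3.12-fold, and MET5 and MET10, the subunits of sulfite reductase, rose 3.17-fold and 2.19-fold. SAM1 and SAM2, which make S-adenosylmethionine, rose 2.86-fold and 3.08-fold. The activator MET4 changed by -0.40 and was not called, while its DNA-binding partner MET32 rose 2.77-fold and MET28, a further partner, rose 1.92-fold. MMP1 and MUP1, which import S-methylmethionine and methionine, rose 3.26-fold and 2.98-fold. They were 2 of 3 genes that rose in a list of 23 for amino acid permeases, GAP1 being the third and STP1, a permease gene activator, the one that fell. Without culture a's 0 min array 1 of them rose and 2 fell, with MUP1 (log2 1.25) and GAP1 (0.74) not called, and without culture b's 6 rose.

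Uptake genes for iron, phosphate, biotin and nucleosides rose as well, each through some members only. ARN1, a carrier of iron-loaded siderophores, had 2.64 and 2.92 at 3 min, against -0.05 and 0.27 at 0 min, and rose 6.37-fold (limma adjusted p = 3.39e-08). ARN1 was near the pool at 0 min and well above it at 3 min. SIT1, another siderophore carrier, rose 3.21-fold, FIT2, a cell wall protein that holds siderophores, 2.91-fold, and FET3, the iron oxidase of high-affinity uptake, 2.64-fold, so that 7 of 23 iron genes rose and none fell. AFT1, the iron regulator, changed by 0.62 and was not called. PHO84 and PHO89, phosphate transporters of high affinity, rose 3.45-fold and 3.24-fold, and PHO90 and PHO91, of low affinity, rose 2.32-fold and 2.08-fold. PHM8, a phosphatase that breaks down nucleotides, was the single phosphate gene of 21 to fall, 5.02-fold, against 7 that rose, or 4 without culture a's 0 min array, PHO91 (log2 0.75) being one of those lost. Of 5 measured biotin genes, BIO5, BIO3 and BIO2 rose 4.41-fold, 2.82-fold and 2.30-fold, and all 3 were also called in the labelled direction.

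Genes for taking up, salvaging and making nucleotides rose in part. FUI1, the uridine permease, had 2.02 and 2.13 at 3 min, against -0.45 and 0.11 at 0 min, and rose 4.75-fold (limma adjusted p = 8.13e-07). FUR4, the uracil permease, rose 3.03-fold, URK1, uridine kinase, 2.44-fold, and URA2, the first enzyme of pyrimidine synthesis, 3.27-fold. Its activator gene PPR1 rose 2.21-fold. Of 21 genes in this list, which also holds the adenine salvage genes AAH1 (4.04-fold) and APT1 (3.06-fold), 10 rose. The 2 that fell were URA10 and URA8, minor isoenzymes of URA5 and URA7, by 3.28-fold and 2.91-fold. In purine synthesis 7 of 26 genes rose and none fell, among them ADE6 by 2.71-fold and IMD4, for GTP synthesis, by 2.36-fold. Without culture a's 0 min array 4 genes of the purine list and 7 of the pyrimidine list rose, and without culture b's 11 and 12 rose.

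The machinery of protein synthesis rose broadly, from nucleolus to cytoplasm. Of 88 ribosome assembly genes 71 rose and none fell, with a median of 1.16. URB1, which acts in large-subunit assembly, had 0.35 and 0.35 at 3 min, against -1.97 and -2.32 at 0 min, a 5.64-fold rise. RPA135 and RPA190, the largest subunits of RNA polymerase I, rose 5.24-fold and 4.36-fold, among 13 of 19 genes of polymerases I and III. UTP22, which joins the small-subunit processome to ribosomal protein gene control, rose 3.99-fold. Genes of nuclear pores and karyopherins rose in part, with 22 of 52 higher, 1 lower and 29 not called. NUP188, of the pore's inner ring, had -0.30 and -0.16 at 3 min, against -2.16 and -2.17 at 0 min, a 3.82-fold rise, and KAP123, which imports ribosomal proteins, rose 2.63-fold. The one that fell was GSP2, the less used copy of the Ran GTPase, by 1.77-fold, a call lost without culture b's 0 min array (log2 -0.69). Among 20 cytosolic tRNA synthetases 15 rose, led by GRS1, for glycine, at 4.16-fold, and 15 of 36 translation factors rose, led by EFB1, an exchange factor of elongation, at 4.46-fold.

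The ribosomal proteins themselves depended more on the turned array. Of 126 genes for cytosolic ribosomal proteins 42 rose and none fell, but the median change was 1.65 in culture a and 0.63 in culture b. Without culture a's 0 min array 24 were called, and without culture b's 99. Dropping the probes over the saturation limit from the test left 8 called, a count over fewer genes than 126. RPS3 had 0.00 and -0.01 at 3 min, against -3.02 and -1.90 at 0 min, and RPL26B had 0.21 and 0.36 at 3 min, against -3.34 and -0.84 at 0 min. The 3 min values of both cultures were nearly equal, and the 0 min values were not. RPS3 rose 5.50-fold and RPL26B 5.17-fold, with SEs of 0.44 and 0.57 on the log2 scale, against 0.11 for URB1. Mitochondrial ribosomal proteins did not move with them: none of 71 rose, and 9 fell (15 without culture b's 0 min array), with a median of -0.33, or 0.14 under the external control shift. RPL26B was not called without either 3 min array.

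Lipid synthesis and cell wall genes rose in part. The subunits of fatty acid synthase, FAS1 and FAS2, rose 2.08-fold and 2.72-fold, and ELO3, which elongates fatty acids for sphingolipids, rose 3.47-fold, so that 5 of 13 fatty acid synthesis genes rose. ERG25, a sterol demethylation enzyme, rose 2.59-fold, but ERG9, squalene synthase, had -1.89 and -1.84 at 3 min, against -0.02 and -0.20 at 0 min, and fell 3.37-fold (limma adjusted p = 2.81e-08). ERG9 was the only one of 25 ergosterol genes to fall, and 4 rose. FKS1, which makes the main glucan of the wall, rose 3.60-fold, and 6 of 25 wall genes rose, whereas PIR3, a wall protein of resting cells, fell 3.77-fold. UTH1, a wall and mitochondrial protein, had 0.23 and 0.26 at 3 min, against -2.88 and -2.63 at 0 min, and rose 7.98-fold. GPD2, which makes glycerol phosphate when NADH is in excess, rose 2.80-fold, the only one of 10 glycerol genes to rise, and was not called without culture a's 0 min array (log2 1.08) or a 3 min array. Without culture a's 0 min array 2 fatty acid synthesis genes and 4 wall genes fell, and without culture b's 7 ergosterol and 11 wall genes rose.

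Mating genes rose, and no pheromone treatment is given in the labels. STE12, the activator of pheromone-responsive genes, had 0.59 and 0.67 at 3 min, against -1.15 and -1.20 at 0 min, and rose 3.49-fold (limma adjusted p = 5.45e-08). STE12 was below the pool at 0 min and above it at 3 min in both cultures. Of 40 pheromone response genes 15 rose and 1, PRM8, fell. STE6 and BAR1 are among the a-cell genes by which the sign of culture a's 0 min array was set, so their change is not independent of that choice. STE6, the exporter of a-factor, rose 3.35-fold, BAR1, the protease that degrades alpha-factor, 3.17-fold, FAR1, which arrests the cycle in G1, 3.01-fold, AGA1, a cell surface adhesin, 2.62-fold, and FUS1, for cell fusion, 1.80-fold. MFA1 and MFA2, which encode a-factor, had changes of 0.88 and 0.28 and were not called, and both were far above the pool at both times. FUS1 was not called without culture b's 3 min array (log2 0.68). TEC1, the partner of Ste12 in filamentous growth, rose 2.45-fold.

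Cell cycle genes changed in both directions. In the Clb2 cluster, transcribed in mitosis, 9 of 17 genes rose and CDC20 fell. CLB2, the main mitotic cyclin, had -1.94 and -1.77 at 3 min, against -3.40 and -3.66 at 0 min, and rose 3.19-fold, staying below the pool. SWI5 rose 2.58-fold and HOF1 2.48-fold. RNR1, a ribonucleotide reductase subunit, rose 1.92-fold, MCM2 2.27-fold and POL1 2.17-fold, among 5 of 19 replication genes. CDC28, the cyclin-dependent kinase, rose 2.14-fold, and SIC1, its inhibitor, fell 2.06-fold, among 2 rises and 2 falls in 16 genes of G1. None of 11 histone genes rose, and HTA2, HHT2 and HTB1 fell 3.48-fold, 2.48-fold and 2.06-fold. Of 11 daughter-cell separation genes, with a median of -0.12, ASH1 and PST1 fell 3.17-fold and 3.55-fold and SCW11, a wall glucanase, rose 1.84-fold, though it was not called without culture a's 0 min array (log2 0.70) or culture b's 3 min array (0.77). Without culture a's 0 min array 6 histone genes fell. The pool signal of HTA2 and HTB1 was over the saturation limit on 1 or more arrays, and HHT2 was the histone gene called without such probes.

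The 20 largest falls were in genes of many roles, mitochondrial enzymes among them. YRO2, a plasma membrane protein related to the chaperone Hsp30, had -0.51 and -0.16 at 3 min, against 3.85 and 3.90 at 0 min. It was far above the pool at 0 min and below it 3 min later in both cultures, a fall of at least 18.5-fold (log2 -4.21, SE 0.14, limma adjusted p = 3.49e-09), a bound because its sample signal was over the saturation limit on both 0 min arrays. STP4, which encodes a zinc finger protein, had -0.34 and -0.27 at 3 min, against 3.39 and 3.71 at 0 min, and fell 14.4-fold. SDH1 and SDH2, the catalytic subunits of succinate dehydrogenase, fell 10.2-fold and 8.64-fold. STF2, linked to ATPase control and to survival of drying, fell 6.97-fold, and PIC2, a mitochondrial copper and phosphate carrier, 5.94-fold. EEB1, which makes ethyl esters of fatty acids, had -0.63 and -0.64 at 3 min, against 1.72 and 1.74 at 0 min, and fell 5.15-fold. OM45, of the mitochondrial outer membrane, fell by the same fold. YDL199C, YHR138C and ECM13, whose roles are little known, fell 5.14-fold, 4.79-fold and 4.87-fold.

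**Figure D4:**
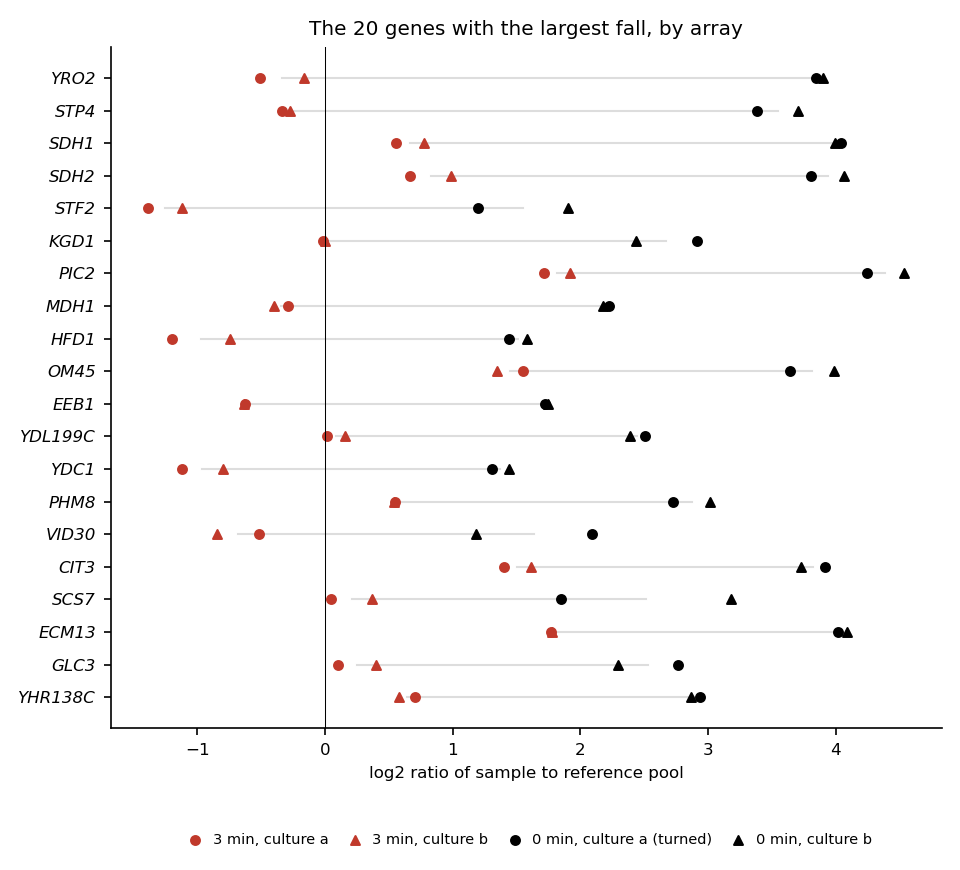
Log2 ratio to the reference pool (x axis) of the 20 genes with the largest fall on each array. Red marks are 3 min and black marks 0 min, circles are culture a and triangles culture b, and the grey line joins the means. In YRO2, the first row, the 3 min arrays lay at -0.51 and -0.16 and the 0 min arrays at 3.85 and 3.90.

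Genes that sense and take up glucose changed in few members. HXT1, the transporter of low affinity for high glucose, had -1.07 and -0.78 at 3 min, against -3.17 and -2.53 at 0 min, and rose 3.79-fold (limma adjusted p = 6.68e-05), remaining below the pool. HXT2, of high affinity, rose 1.84-fold, and HXT5, expressed in slow-growing cells, fell 2.01-fold. The other 11 of 14 measured transporter genes were not called, with HXT4 at 0.15, HXT6 at -0.59 and GAL2 at -0.24. The sample signal of HXT6 was over the saturation limit on 1 array of 0 min, so its fall may be understated. MTH1, a corepressor that acts with Rgt1, had 1.84 and 1.75 at 3 min, against 3.39 and 3.57 at 0 min, and fell 3.22-fold. SNF3, the sensor of low glucose, fell 2.36-fold, while RGT2, the sensor of high glucose, changed by 0.22 and was not called. SIP2, a Snf1 complex subunit, fell 2.71-fold, TOS3, an upstream kinase, 1.85-fold and REG1, the phosphatase subunit that opposes Snf1, 1.82-fold. SNF1 itself changed by -0.01 and the repressor MIG1 by 0.01, neither called, so 5 of 25 sensing genes fell and none rose. Without culture a's 0 min array HXT2 (log2 0.61) and REG1 (-0.71) were not called and HXT6 fell (-0.97), and without culture b's HXT5 (-0.67) and TOS3 (-0.68) were not called.

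Components of the cyclic AMP pathway fell on both its activating and its inhibiting side. TPK2, a catalytic subunit of protein kinase A, had -1.09 and -0.93 at 3 min, against 1.10 and 0.86 at 0 min, and fell 3.98-fold (limma adjusted p = 9.14e-09). BCY1, the inhibitory subunit, fell 2.65-fold, RAS2 2.75-fold, CYR1, adenylate cyclase, 2.49-fold and PDE1, which degrades cyclic AMP, 2.80-fold. RGS2, which damps the glucose receptor's G protein, fell 2.43-fold, and GPA2, that G protein, 2.07-fold. In all 8 of 21 genes fell and none rose, with a median of -0.50 that became -0.04 under the external control shift, and 6 stayed called lower. TPK3 changed by 0.57 and SCH9 by 0.61, neither called.

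Regulators of the respiring and the stressed state fell as transcripts too. HAP4, the activating subunit of the Hap complex for respiratory genes, had 1.19 and 1.41 at 3 min, against 3.06 and 3.56 at 0 min, and fell 4.03-fold. CAT8, which activates gluconeogenic genes, fell 3.19-fold, ADR1, for ethanol and fatty acid use, 2.40-fold, SIP4 2.28-fold, HAP2 2.20-fold and GSM1 2.01-fold, 6 of 14 activators. ERT1 had the other sign (0.73) and was not called. MSN4 had 0.23 and 0.27 at 3 min, against 2.44 and 2.52 at 0 min, and fell 4.70-fold (limma adjusted p = 1.41e-08), whereas its paralogue MSN2 changed by -0.09 and was not called. GIS1, a further activator in starved cells, fell 1.86-fold. RME1, a repressor of meiosis, fell 4.38-fold and IXR1, of hypoxic control, 3.26-fold. GAT1, which activates genes for using poor nitrogen sources, had 2.45 and 2.48 at 3 min, against 0.90 and 0.90 at 0 min, and rose 2.96-fold. Of 143 transcription factor genes 14 rose and 25 fell, or 9 and 29 without culture a's 0 min array.

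Enzymes for gluconeogenesis and for carbon sources other than glucose fell, with exceptions. FBP1, fructose bisphosphatase, had 2.14 and 2.69 at 3 min, against 3.55 and 3.88 at 0 min, and fell 2.46-fold. Its level at 3 min was still well above the pool. ICL1 and MLS1, the glyoxylate cycle enzymes, fell 2.31-fold and 2.50-fold, MDH2 1.88-fold, SFC1, the succinate and fumarate carrier, 2.32-fold, ICL2 1.7-fold and IDP2, a cytosolic isocitrate dehydrogenase, 3.91-fold. PCK1, the first committed enzyme of gluconeogenesis, had 2.95 and 3.02 at 3 min, against 3.10 and 3.46 at 0 min. Its change of -0.30 was below the fold threshold, and CIT2 and DAL7 were not called at 0.02 and 0.21. The sample signal of CIT2 was over the saturation limit on 2 arrays of 0 min and 1 of 3 min. Its value therefore cannot show that it did not fall. JEN1, the lactate carrier, fell 2.26-fold, ADY2, an acetate carrier, 3.01-fold, ACS1, an acetyl-CoA synthetase, 2.52-fold and ACH1, which moves CoA to acetate, 4.79-fold, among 7 falls and 1 rise in 16 genes of acetate, ethanol and lactate use. Of 10 gluconeogenesis and glyoxylate genes 7 fell. Of 8 measured maltose and sucrose genes 7 fell, among them SUC2, invertase, at 1.86-fold and MAL31, a maltose permease, at 2.58-fold. The isocitrate lyase, malate synthase and carrier levels remained far above the pool at 3 min. Under the external control shift 3 gluconeogenesis, 3 acetate and 1 maltose and sucrose gene were called lower. MLS1 and ICL2 were not called without culture b's 0 min array (log2 -0.69 and -0.65) or without culture a's 3 min array (-1.25 and -0.67).

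Reserve carbohydrate genes fell, those of trehalose on the sides of synthesis and breakdown. TPS2 and TSL1, of trehalose synthase, fell 4.54-fold and 4.05-fold, TPS1 2.74-fold and TPS3 1.96-fold, and the trehalases NTH1 and ATH1 fell 1.99-fold and 1.71-fold. NTH2, a relative of NTH1, changed by -0.61 and was not called, nor was ATH1 without culture a's 0 min array (-0.64). GLC3, the glycogen branching enzyme, had 0.10 and 0.40 at 3 min, against 2.76 and 2.29 at 0 min, and fell 4.85-fold (limma adjusted p = 1.01e-07). GLG1 and GLG2, the primers of glycogen, fell 3.14-fold and 2.67-fold, GSY1 and GSY2, its synthases, 2.15-fold and 2.73-fold, and PIG2, a phosphatase targeting subunit, 3.23-fold. PGM2, phosphoglucomutase, fell 3.97-fold, while the minor PGM1 changed by 0.00. Of 15 glycogen genes 9 fell and of 7 trehalose genes 6, and 6 and 3 of them under the external control shift. GPH1, glycogen phosphorylase, was not above background on these arrays and has no usable level.

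Targets of Msn2 and Msn4 fell in 27 of 35 cases, and none rose. HSP26, a small heat shock protein, had 2.97 and 2.96 at 3 min, against 4.75 and 5.33 at 0 min, and fell at least 4.22-fold, its sample signal being over the saturation limit on both 0 min arrays. HSP12, a membrane-stabilising protein, fell 2.89-fold, PNC1, nicotinamidase, 4.62-fold, DCS2, a decapping regulator, 4.46-fold, RTC3 4.45-fold and HSP42 3.72-fold. XBP1, a repressor of cyclin genes in resting cells, and SPI1, a wall protein, changed by -0.50 and -0.26 and were not called. The sample signal of SPI1 was over the saturation limit on 1 array of 0 min, so its fall may be understated. Chaperones outside this list divided: SSE2, the stress-induced nucleotide exchange factor, fell 4.13-fold, BTN2 3.59-fold, HSP60 2.62-fold and SIS1 2.27-fold, while SSE1, the paralogue of SSE2, rose 1.91-fold and CPR7, an Hsp90 partner, rose 1.86-fold. Of 27 heat shock genes 8 fell and 2 rose, with a median of -0.48 that became -0.02 with the external control shift, and without culture a's 0 min array 13 fell and 1 rose, SSE1 (log2 0.74) not being called, while without culture b's 6 fell and 5 rose. DER1, for degradation of proteins from the endoplasmic reticulum, fell 2.53-fold, the only one of 16 genes of that compartment to be called with all arrays.

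Genes of the TCA cycle, the respiratory chain, ubiquinone synthesis and beta-oxidation were lower as groups. In the TCA cycle 11 of 13 genes fell and none rose, with a median of -1.57. KGD1, of the oxoglutarate dehydrogenase, had -0.02 and 0.00 at 3 min, against 2.92 and 2.43 at 0 min, and fell 6.44-fold, and MDH1, malate dehydrogenase, fell 5.84-fold. Of 42 respiratory chain and ATP synthase genes 31 fell, with NDI1, the internal NADH dehydrogenase, at 4.75-fold, COX13 at 4.22-fold and QCR2 at 4.08-fold. Of 10 ubiquinone synthesis genes 6 fell. In beta-oxidation 11 of 16 genes fell, led by MDH3, the peroxisomal malate dehydrogenase, which had -0.84 and -0.56 at 3 min, against 1.60 and 1.35 at 0 min, a 4.53-fold fall. PXA1 and PXA2, which pair as the fatty acid importer, fell 3.45-fold and 2.58-fold, FOX2 3.18-fold and POX1, acyl-CoA oxidase, 2.65-fold. POT1, the thiolase, changed by -0.65 and was not called. In the labelled direction 5 ubiquinone, 1 TCA cycle, 1 beta-oxidation and 0 respiratory chain and ATP synthase genes were called lower. Under the external control shift 8 TCA cycle, 25 respiratory chain and ATP synthase and 8 beta-oxidation genes were lower. In the ubiquinone list 3 were then lower and 2 higher.

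Genes for autophagy and for the GID ubiquitin ligase fell in part. In autophagy 10 of 20 genes fell and none rose: ATG7, the activating enzyme of the conjugation systems, had -1.03 and -0.89 at 3 min, against 0.89 and 0.87 at 0 min, and fell 3.59-fold (limma adjusted p = 1.13e-08). ATG8, the ubiquitin-like protein of the autophagosome, fell 2.45-fold, ATG29 3.34-fold and ATG1, the initiating kinase, 2.1-fold. The GID ubiquitin ligase is known to mark gluconeogenic enzymes for degradation after glucose returns, and 6 of its 8 genes fell, VID30 4.99-fold, FYV10 4.07-fold, UBC8 4.02-fold, RMD5 2.31-fold, VID28 2.30-fold and GID7 1.79-fold. VID24, its substrate receptor, had 3.56 and 3.76 at 3 min, against 3.93 and 4.52 at 0 min, and was not called at -0.56. VID24 therefore stayed far above the pool, and it fell without culture a's 0 min array (log2 -0.86), where ATG1 was not called (-0.75). GID7 was not called without culture b's 0 min array (-0.71). Of 33 proteasome genes 4 fell, a share near that of all genes, and RPT2 among them fell 2.58-fold. The median of the proteasome list was -0.35, which became 0.12 with the external control shift. Under that shift 3 of 20 autophagy and 3 of 8 GID genes were called lower.

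Sphingolipid genes fell in 10 of 27 cases and rose in 1, LCB1, the first enzyme of the pathway, at 1.98-fold. HFD1, which oxidises the fatty aldehyde from sphingolipid breakdown, had -1.20 and -0.74 at 3 min, against 1.44 and 1.59 at 0 min, and fell 5.60-fold. YDC1 and YPC1, the ceramidases, fell 5.05-fold and 2.90-fold, and DPL1, the lyase of long-chain base phosphates, fell 2.28-fold. SCS7 and SUR2, the hydroxylases of the fatty acid and the long-chain base, fell 4.95-fold and 3.03-fold. The list's median was -0.45, and 0.02 under the external control shift. LCB1 was not called without culture a's 0 min array (log2 0.71) or either 3 min array.

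Several pairs of isoenzymes moved apart. In the pentose phosphate pathway GND1, SOL3 and TKL1 rose 2.91-fold, 3.15-fold and 3.01-fold, while GND2 and SOL4, the paralogues of GND1 and SOL3, fell 2.42-fold and 2.09-fold and TKL2 changed by 0.21. NQM1, the paralogue of the transaldolase TAL1, fell 1.87-fold, and TAL1 itself was not called at -0.55. GND1 had -1.78 and -1.25 at 3 min, against -3.52 and -2.59 at 0 min, and GND2 had 1.37 and 1.45 at 3 min, against 2.64 and 2.74 at 0 min. The usual enzyme thus approached the pool from below and its paralogue from above. ALD6, the cytosolic aldehyde dehydrogenase, rose 2.73-fold, while ALD2 and ALD3 fell 1.98-fold and 2.26-fold. GRS1 rose 4.16-fold, and GRS2, its second copy, had -1.71 and -1.68 at 3 min, against -0.24 and -0.31 at 0 min, and fell 2.67-fold. In glucose phosphorylation GLK1, EMI2 and HXK1 fell 4.27-fold, 3.33-fold and 2.53-fold, and HXK2, the main hexokinase, had -3.21 and -2.48 at 3 min, against -3.87 and -0.89 at 0 min, which overlap. PYK2 fell 2.41-fold, and the main pyruvate kinase CDC19 was not called at -0.28 with overlapping arrays. PDC5 rose 3.24-fold, and PDC1, the main pyruvate decarboxylase, had -1.68 and -1.18 at 3 min, against -5.05 and -2.02 at 0 min, too wide a spread at 0 min for a call (limma adjusted p = 0.0197). Of 24 glycolysis and fermentation genes 1 rose and 6 fell, with a median of -0.13, or 0.33 under the external control shift. The direction of this list differed between the cultures, with a median change of 0.50 in culture a and -0.40 in culture b. Without culture a's 0 min array none rose and 9 fell, with a median of -0.99. Without culture b's 5 rose and 6 fell, with a median of 0.87. The medians with an array left out also hold the difference between the cultures. The pool signal of PDC5 and PDC1 was over the saturation limit on all 4 arrays. Without culture a's 0 min array GND1 (log2 1.08), ALD6 (1.1) and PDC5 (1.07) were not called and HXK2 fell (-1.96), and without culture b's NQM1 (-0.61) was not called and PDC1 rose (3.62).

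The remaining lists held few calls, apart from the short polyamine synthesis list. Of 59 amino acid synthesis genes 9 rose and 3 fell, with LEU9, of leucine synthesis, at 4.03-fold, or 6 and 7 without culture a's 0 min array and 21 higher without culture b's. Of 16 regulators of ribosome genes TOD6 and UTP22 rose and DOT6, the paralogue of TOD6, fell 1.82-fold (not called without culture b's 0 min array, log2 -0.71). Of 28 mRNA decay genes 2 rose and 1 fell, of 18 inositol and phospholipid genes 2 rose (none without culture a's 0 min array, 5 without culture b's) and 1 fell, and 1 of 15 vacuolar ATPase genes fell (none without culture b's 0 min array). Of 13 genes for ammonium and glutamate 1 rose and 1 fell, GDH2, glutamate dehydrogenase, by 1.89-fold. Of 4 polyamine synthesis genes 3 rose, SPE3, spermidine synthase, by 2.81-fold. None of 6 aryl-alcohol dehydrogenase genes was called with all arrays, and 2 rose without culture a's 0 min array. Of the 1344 called genes 761 were in no list.

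Some groups were at their highest median at 3 min, and others changed further. The median log2 ratio of the oxidant and electrophile defence genes began at -0.25 at 0 min, reached 1.52 by 3 min and then declined to 1.29 at 7.5 min, 0.74 at 15 min and 0.05 at 30 min. That list was assembled after its values were seen, so its peak at 3 min is not independent of that choice. Sulfate assimilation genes began at 0.44, stood at 1.28 after 3 min and continued to 1.94 at 7.5 min. Gluconeogenesis and glyoxylate genes began at 3.59, stood at 2.97 after 3 min and went on to 1.53 at 15 min and 0.17 at 60 min. The mean of OYE3 began at 1.51, stood at 4.63 after 3 min and returned to 3.39 at 15 min and 0.06 at 60 min, whereas that of YRO2 began at 3.88, stood at -0.34 after 3 min and continued to -2.27 at 15 min. Among called genes, 340 of the 703 lower ones were still above the pool at 3 min and 215 of the 641 higher ones were still below it.

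**Figure D5:**
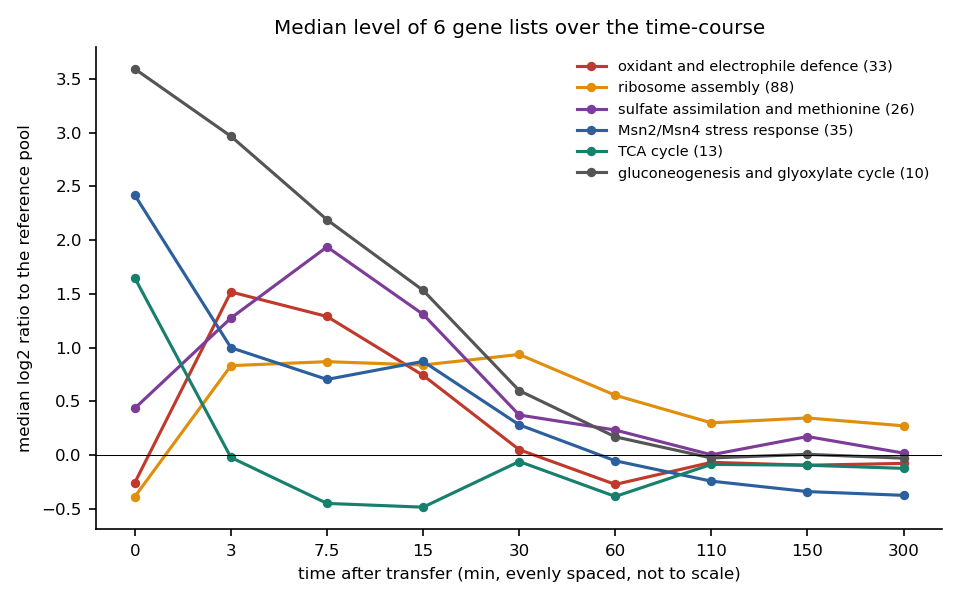
Median log2 ratio to the reference pool (y axis) of 6 gene lists at the 9 sampled times (x axis, evenly spaced, not to scale). The median of oxidant and electrophile defence began at -0.25, peaked at 3 min with 1.52 and was 0.05 after 30 min. That list was assembled after its values were seen. The Msn2/Msn4 targets began at 2.42.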

How the data were processed

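Transcripts of wild-type yeast were measured on 18 two-colour arrays of long oligonucleotide probes, 2 cultures at each of 9 times. The deposited spot intensities are scanner values that the authors took without background subtraction, and the deposited log2 ratios are theirs after print-tip loess with a span of 0.4, centred on each array. The submitters' processing notes name limma 2.12.0. A correction of gene-specific dye bias is described for mutant arrays only. Spots of a gene were averaged, transposon and mitochondrial genes and YDL196W were left out, and the sign of culture a's array at 0 min was turned because its genotype-fixed genes ran against all other arrays.

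A model with 1 coefficient per time was fitted to all 18 arrays (limma 3.58.1, R 4.3.3, 9 residual degrees of freedom), and 3 min was set against 0 min. The step was tested on simulated data. The simulation gave each gene the same spread at all times and did not pair the cultures. It therefore cannot show whether the p-values hold for this comparison. With 1 array per culture and time, the p-values rest on the spread between 2 cultures pooled over all 9 times. The mean absolute difference between cultures was 0.301 at 0 min, and 0.117 to 0.251 at the other times. The p-values can therefore understate the error of this comparison, and precision is limited by so few arrays. The methods describe the times as samples of the same cultures, and the difference between cultures at 3 min correlated with that at 0 min at r = 0.595 over genes (0.241 to 0.901 over pairs of times), so the cultures pair the arrays. The main model left this pairing out, with culture as a block among the alternatives. At least 98.2% of spots lay above background on each array used.

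The text names the 20 largest rises and falls, up to 6 called members of each list with the largest change, and all members of a few short lists. The comparison, the members and the lists were chosen with earlier results of these data known, and 15 of the 61 lists after the values were seen. Alternatives were culture as a block, each array left out, only the 4 arrays, the labelled direction, other normalizations and probe filters, a shift to the external control spots and the adjusted p alone. Symbols come from the platform annotation and a RefSeq gene table. Promoter and protein sequences were not analysed here.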

Additional observations from a re-analysis of the deposited data

Results flagged for a closer look

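The array also carries 1062 reading frames that have a systematic identifier but no gene name, and these enter no comparison above. At 3 min 62 of them were higher and 115 lower than at 0 min under the same thresholds (5.84% and 10.8%). The largest rise was 3.10 and the largest fall -2.34 on the log2 scale, and the median was -0.02. No explanation of these changes was tested.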

How the results depend on the processing

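The counts with all arrays were 641 genes higher and 703 lower. Leaving out 1 of the 4 arrays gave 498 to 850 higher and 642 to 743 lower. With culture as a replicate block the counts were 683 and 723, and the block cost none of the named genes its call. With the 4 arrays alone, which leave 2 residual degrees of freedom, 337 were higher and 464 lower, and 640 and 687 with the replicate block. The adjusted p alone, without a fold threshold, gave 1274 and 1371, and the shift to the external controls gave 1611 and 293. Among the 272 named genes, the 4 arrays alone took the call from 71 and the external control shift from 39 while giving 10 one, 1 loess curve per array took it from 13 and gave 2 one, and repeating the print-tip loess or adding normexp background correction changed none. Only 6 external control probes carry the shift, and only 2 cultures carry each time.

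The labelled direction gave 104 genes higher and 129 lower, kept 87 of the 272 named genes at the same call or lack of one, took the call from 80 that kept their direction, gave 1 a call and reversed 104. By construction it averages culture b's 0 min ratios with ratios that mostly have the opposite sign. Log2 changes in that direction, of genes called higher with the array turned, were ARI1 -1.49, AHP1 -1.07, PDR5 -0.56, FET3 -0.62, URA5 -0.55, ADE6 -0.49, IMD4 -0.47, NUP188 -0.22, GRS1 -0.88, EFB1 -0.71, RPS3 -0.57, RPL26B -0.97, FAS1 -0.93, FAS2 -1.16, ELO3 -1.44, ERG25 -0.20, FAR1 -0.15, FUS1 -0.08, CLB2 -1.73, SWI5 -1.90, HOF1 -2.15, RNR1 -1.68, POL1 -0.77, CDC28 -0.08, HXT1 -1.24, CPR7 -0.26, LCB1 -0.28, GND1 -1.98, SOL3 -1.79, TKL1 -1.0, PDC5 -2.00 SPE3 -1.06 and SCW11 -1.31. Those of genes called lower with it turned were CTT1 0.26, GPX1 0.69, AUS1 0.14, STP1 0.98, PHM8 0.40, URA10 2.53, URA8 0.10, SDH1 0.69, SDH2 0.70, PIC2 1.67, OM45 1.28, YDL199C 0.14, YHR138C 0.68, ECM13 1.74, HXT5 2.14, MTH1 1.71, SNF3 0.39, SIP2 0.17, REG1 0.26, PDE1 0.62, RGS2 1.04, GPA2 0.31, HAP4 1.05, CAT8 2.21, ADR1 1.40, SIP4 2.31, HAP2 0.19, GSM1 1.95, MSN4 0.21, GIS1 0.50, IXR1 0.21, FBP1 2.25, ICL1 2.67, MLS1 2.67, SFC1 3.07, IDP2 2.92, JEN1 2.66, ADY2 1.02, ACS1 1.34, ACH1 1.11, MAL31 0.88, NTH1 1.14, ATH1 1.51, GLC3 0.48, GLG1 0.13, GLG2 0.02, PIG2 0.60, HSP26 2.68, HSP12 1.31, DCS2 0.97, HSP42 1.19, SSE2 0.41, BTN2 0.59, KGD1 0.23, NDI1 0.26, COX13 0.96, QCR2 0.23, PXA1 0.24, PXA2 0.03, FOX2 0.61, POX1 1.59, ATG8 1.03, ATG1 1.46, RMD5 0.47, YPC1 0.34, GND2 1.36, SOL4 0.88, NQM1 2.69, ALD3 1.15, DOT6 0.53 and GDH2 3.10.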
